A study of Caenorhabditis elegans with 2 samples.

Results

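Of the 115573 peaks ranked for NHR-120 in whole young adult Caenorhabditis elegans, 534 had their summit within 250 bp of the start of a nuclear tRNA gene, which is 0.462% of the list. The members were taken by position alone, from the 5′ ends of all 612 nuclear genes that Ensembl release 115 annotates as tRNA on the assembly WBcel235, also named ce11. The 22 mitochondrial tRNA genes added none, since all ranked peaks lie on the 6 nuclear chromosomes. Each peak is called here by the tRNA gene whose start lies nearest its summit, and in all 499 genes were the nearest start of a peak. There were 464 genes with 1 peak and 35 with 2, and 53 peaks had the starts of 2 tRNA genes within 250 bp. Every one of the 534 intervals was 264 bp long, and 71 of them overlapped another of the 534, so neighbouring peaks share sequence and are not independent measurements.

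The series holds 1 group, 2 biological replicates of strain OP415, and no second condition to set it against. These worms carry wgIs415, a fosmid transgene that places TY1, EGFP and 3xFLAG tags on nhr-120, with unc-119(+) as a rescue marker in an unc-119(tm4063) background. The worms were synchronised as L1 larvae starved after bleaching and taken as young adults at 64 hours, and sonicated chromatin was precipitated with an antibody against GFP. Whole animals were used, so a strong peak in few cells and a weaker one in many cannot be told apart, and the possible control that the labels name was not analysed here. The signal of a peak is the authors' value on a scale that is not stated, and no read counts are given, so the depth behind it is unknown. Replicates 1 and 2 each have a ranked list of their own, with 60719 and 58785 peaks, from which the value of each replicate was read at the overlapping peak with the nearest summit. The scales of the 2 lists may differ, so a higher value in a replicate is a difference between lists and not shown to be one of binding.

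Transfer RNA genes are short and are transcribed by RNA polymerase III from promoter elements that lie inside the gene. The factor TFIIIC reads box A near the gene start and box B in the part that encodes the T arm, and it brings TFIIIB to the DNA just before the start. Transcription ends at a run of T shortly after the gene. NHR-120 belongs to the nuclear hormone receptors, zinc-finger transcription factors known for acting at genes of RNA polymerase II.

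The genes of several strong peaks are printed below from the RefSeq genome WBcel235, from the gene start to 12 bases past its end, on the strand of the gene. Capitals mark the box B word GTTCNANNC inside the gene and the run of at least 4 T after it. The first 4 are alanine genes, shown because their peaks were among the strongest although 2 of them occur once in the genome. F15G9.t1 at chrX:9743589-9743672 (plus strand) and T07H6.t2 at chrX:6292266-6292349 (minus strand) have the same 72 bases of gene and different bases after it. Over those 72 bases K06A4.t1 at chrV:9503562-9503645 (plus strand) has 2 mismatches to F15G9.t1, and F44A2.t1 at chrV:9318202-9318285 (plus strand) has 3.
F15G9.t1: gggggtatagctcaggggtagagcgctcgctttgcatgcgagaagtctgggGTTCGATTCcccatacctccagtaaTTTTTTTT
T07H6.t2: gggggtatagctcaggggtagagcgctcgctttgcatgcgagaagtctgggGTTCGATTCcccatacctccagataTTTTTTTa
K06A4.t1: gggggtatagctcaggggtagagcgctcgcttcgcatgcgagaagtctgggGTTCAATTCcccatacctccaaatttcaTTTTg
F44A2.t1: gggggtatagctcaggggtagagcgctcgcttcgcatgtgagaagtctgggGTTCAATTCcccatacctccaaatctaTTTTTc

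A second set shows genes with an intron, a gene with many copies and a gene without the box B word. C04A11.t1, a leucine gene at chrX:13665555-13665685 (plus strand), has an intron of 35 bases and occurs once in the genome. C02B4.t2, a tyrosine gene at chrX:12665228-12665323 (plus strand), has an intron of 11 bases. F02H6.t1, a proline gene at chrIV:14225102-14225185 (plus strand), is 1 of 24 identical genes. C16B8.t2, a proline gene at chrX:3970096-3970179 (plus strand), occurs once and does not hold GTTCNANNC, so only its T run is in capitals.
C04A11.t1: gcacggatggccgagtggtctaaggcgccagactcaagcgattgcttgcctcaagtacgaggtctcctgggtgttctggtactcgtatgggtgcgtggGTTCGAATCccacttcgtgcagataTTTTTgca
C02B4.t2: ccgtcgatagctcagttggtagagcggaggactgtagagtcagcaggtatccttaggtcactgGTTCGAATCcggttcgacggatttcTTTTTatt
F02H6.t1: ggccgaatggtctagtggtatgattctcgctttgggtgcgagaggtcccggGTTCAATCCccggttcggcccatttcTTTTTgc
C16B8.t2: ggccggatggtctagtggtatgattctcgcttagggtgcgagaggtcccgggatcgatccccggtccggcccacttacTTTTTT

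The box B word was found at most of these peaks and at few ranked peaks elsewhere. The box B word GTTCNANNC, searched on both strands within 100 bp of the summit, was present at 75.1% of the 534 tRNA peaks, against 8.16% of all ranked peaks. A longer and stricter form of the box B word, each occurrence of which also holds GTTCNANNC, was present at 47.9% of the tRNA peaks and 0.628% of all ranked peaks. Since the peaks were chosen for lying at tRNA genes, these shares describe the genes, of which 95.9% hold the shorter word and 64.4% the longer. Box A was poorly captured by fixed words. A pair of loose box A words, chosen after the first ones had matched few genes, was found at 29.4% and 21.5% of tRNA peaks, against 5.31% and 5.66% of all ranked peaks. The first pair was at 7.30% and 0.562% of tRNA peaks, against 0.364% and 0.496% of all ranked peaks. A T run of 4 within 30 bp after the gene end was present for 605 of the 612 genes.

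The signal of tRNA peaks was high for the ranked list. Their median signal was 44.9, with quartiles of 31.1 and 64.1 and a range of 2.04 to 166, against a median of 22.9 and quartiles of 14.5 and 32.4 for all ranked peaks. The tRNA median stood at percentile 92.5 of all ranked peaks, and 448 of the 534 were above the median of all ranked peaks. None was at the very top: the strongest had rank 44 of all ranked peaks, 7 were among the 100 strongest and 125 among the 1000 strongest. In the own list of each replicate the tRNA peaks were also on the high side, with a median of 25.1 against 16.7 for all of replicate 1 and 26.4 against 17.4 for all of replicate 2.

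A thresholded list of 610 peaks, all with a global IDR of at most 0.01, held 98 of the tRNA peaks by an overlap of at least 1 bp. The IDR, or irreproducible discovery rate, is low where a peak ranks consistently high in the compared lists. The 98 are 18.4% of them (95% Wilson interval 15.3 to 21.9%), against 0.546% of all ranked peaks. For 96 the interval was the thresholded interval itself, and the same 96 had an IDR of at most 0.01, 17.98% of the tRNA peaks against 0.612% of all ranked peaks. Read the other way, tRNA peaks made up 96 of the 610 thresholded peaks, or 15.7%, and 90 of the 555 peaks of the conservative list, or 16.2%. The conservative list overlapped 91 of the 534 tRNA peaks, 82 of which were also in the thresholded list. Signal and list went together but not strictly: all 25 strongest tRNA peaks were thresholded, the weakest thresholded one had a signal of 18.2 and the strongest one outside the list had 82.8.

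Few tRNA peaks were thresholded in a replicate alone, where the lists were short. The thresholded list held 89 peaks in replicate 1 and 96 in replicate 2, against 610 in the joint one. The thresholded list of replicate 1 overlapped 18 of the 534 (3.37%, against 0.0779% of all ranked peaks), and that of replicate 2 overlapped 12 (2.25%, against 0.0813%). Both lists held the same 6 peaks, at F15G9.t1, C04A11.t1, F52C9.t1, T10B10.t2, F42D1.t1 and E03E2.t1, which belong to 6 different isotypes. The isotype is the amino acid that the tRNA carries.

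F15G9.t1, an alanine gene in an intron of him-4 (the hemicentin gene, an extracellular matrix protein), had the strongest tRNA peak, at chrX:9743526-9743789. Its signal was 166 in the joint list, 57.7 in replicate 1 and 96.7 in replicate 2, and its summit lay 69 bp after the gene start. A second alanine gene, F15G9.t2, starts 158 bp from it on the same strand, so the peak spans both starts. The alanine peaks at K06A4.t1 (118 jointly, 51.9 in replicate 1, 58.6 in replicate 2) and F44A2.t1 (121 jointly, 79.7 in replicate 1, 41.4 in replicate 2) ranked 8 and 7 among the tRNA peaks, each at a gene whose sequence occurs once. K06A4.t1 is in an intron of swt-5, a gene of the SWEET sugar transporter family, and F44A2.t1 is in no host gene.

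C04A11.t1, the leucine gene with the intron, had the second strongest peak, with 137 jointly, 76.3 in replicate 1 and 60.5 in replicate 2. W03G11.t1, a lysine gene with 25 copies, had 127 jointly, 79.9 in replicate 1 and 41.9 in replicate 2. F52C9.t1, a threonine gene on chromosome III, had 126 jointly, 59.2 in replicate 1 and 66.7 in replicate 2. The lists thus differed in which of these peaks had the higher value: that of replicate 1 was higher at C04A11.t1, W03G11.t1 and F44A2.t1, and that of replicate 2 at F15G9.t1, F52C9.t1 and K06A4.t1.

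F41D9.t3, an asparagine gene in an intron of sulp-3 (sulfate permease family), had 124 jointly, 48.6 in replicate 1 and 76.7 in replicate 2. The glycine gene T10B10.t2 had 122 jointly, 55.1 in replicate 1 and 65.4 in replicate 2, with the summit 24 bp before the start and the head of a second glycine gene, T10B10.t1, 119 bp away. F42D1.t1, a cysteine gene, had 118 jointly, 53.1 in replicate 1 and 65.7 in replicate 2, with the summit 1 bp after the start. The value in the list of replicate 2 was the higher one at each of these 3 peaks, all on the X chromosome.

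The glycine gene M02F4.t1 followed with 115 jointly, 56.6 in replicate 1 and 55.8 in replicate 2. C02B4.t2, the tyrosine gene, in an intron of the nuclear hormone receptor gene nhr-17, had 110 jointly, 52.9 in replicate 1 and 56.0 in replicate 2. The serine gene E03E2.t1, in an intron of cat-1 (the vesicular monoamine transporter), had 109 jointly, 52.3 in replicate 1 and 57.6 in replicate 2. At these 3 peaks the replicates gave nearly the same values. The lysine gene T23F1.t1 on chromosome V was the last above 105, with 108 jointly, 55.6 in replicate 1 and 56.0 in replicate 2.

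The remaining 12 of the 25 strongest peaks had joint signals of 93.1 at T03G6.t1 (glycine) to 103 at F12D9.t1 (cysteine). The others were at T07H6.t2 (alanine), C18A11.t2 and F35H8.t1 (arginine), F02H6.t1 (proline), F49D11.t1 and F56C3.t1 (glycine), K11E4.t5 (lysine), F59C12.t2 (aspartate), H08J11.t3 (glutamine) and C16C8.t2 (threonine). Each of the 25 was found in the ranked lists of both replicates. Their lowest value in replicate 1 was 36.5, at T03G6.t1, and in replicate 2 it was 38.1, at C18A11.t2, both above the median of all peaks of that replicate.

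The summits lay over the body of the tRNA gene more than at its start. The median summit was 30 bp after the start, and with a median gene length of 72 bases it was at -6.75 bp from the middle of the gene, that is, before it. A summit lay inside the gene for 261 peaks (48.9%), before the start for 151 and past the gene end for 122. Signal followed the position: the median was 54.3 for summits inside the gene and 37.0 for those outside it, and 26.1% of the inside peaks were thresholded, against 11.0% of the outside peaks. The medians in the own values of the replicates had the same order, 28.5 inside and 23.5 outside in replicate 1, and 31.0 inside and 24.9 outside in replicate 2.

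In steps of 50 bp the peaks were most numerous and strongest from 0 to 49 bp after the start, with 194 peaks, a median of 54.5 and 49 thresholded. From 50 to 99 bp there were 107 peaks with a median of 50.5, of which 27 were thresholded. The medians were 41.8 in the last 50 bp before the start and 37.3 from 100 to 149 bp after it, and they were lowest, 18.7, from 250 to 201 bp before the start, which 14 peaks make up. No tRNA peak was thresholded with a summit more than 100 bp before the start or 150 bp or more after it. Thresholded peaks had their summits closer to the gene middle than all tRNA peaks, by a median absolute distance of 26.8 bp against 39 bp. The box B word was farther off than the gene middle, since the median summit lay at -28 bp from the middle of that word.

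**Figure D1:**
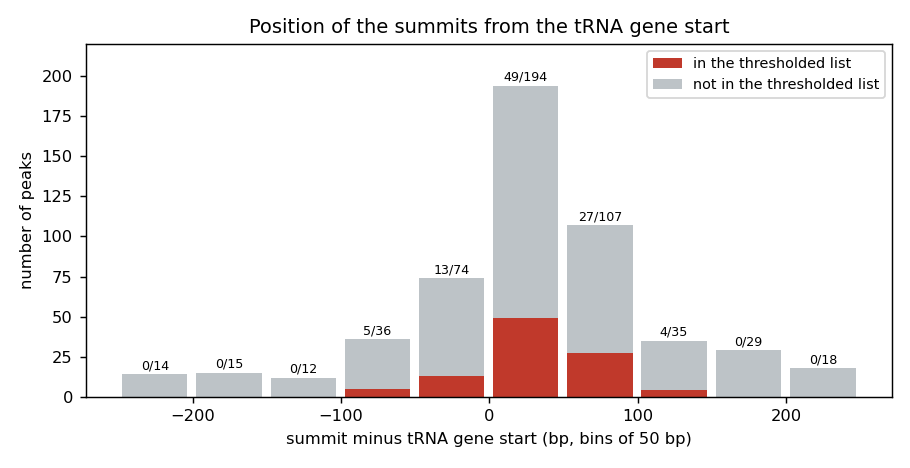
Number of tRNA peaks by distance of the summit from the gene start, in bp along the direction of transcription and in bins of 50 bp. The labels give thresholded peaks over all peaks of the bin, and the bin from 0 to 49 bp holds 49 of 194.

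**Figure D2:**
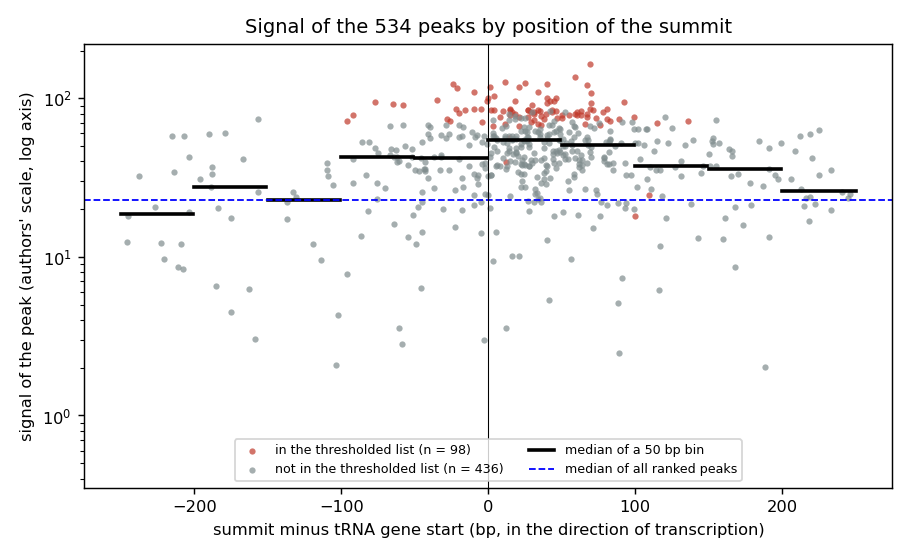
Signal of each of the 534 tRNA peaks on a log axis against the distance of its summit from the gene start in bp, with red points in the thresholded list, black bars for the median of each bin of 50 bp and a dashed line for the median of all ranked peaks, 22.9. The bars are highest between 0 and 99 bp and fall to about the dashed line or below it in 2 of the 3 bins farthest before the start.

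The 6 peaks nearest the edge of the rule all had signals below the tRNA median of 44.9. The strongest of them, K08B5.t1 with 39.6, was above the third quartile of all ranked peaks, 32.4. The 3 peaks nearest inside the limit were at C56G7.t1, 246 bp after the start with a signal of 24.9, at C31E10.t1, 246 bp before the start with 12.4, and at B0344.t3, 245 bp after the start with 23.6. The 3 nearest outside it were at Y51H4A.t3 with 18.98, at K08B5.t1 with 39.6 and at C08E8.t3 with 12.6, at 255 to 257 bp. None of the 6 was thresholded. The 255 ranked peaks with a summit 251 to 500 bp from the nearest tRNA gene start had a median of 20.6, near that of all ranked peaks, and 2 of them (0.784%) were thresholded.

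Most nuclear tRNA genes had a ranked summit within 250 bp, 538 of 612 or 87.9%. The share of other positions in the genome with a ranked summit as near was not measured. The shares given here are therefore not shown to be high for so long a list. The other 74 had their nearest ranked summit at a median of 472.5 bp. Genes whose sequence is copied were reached more often, 426 of 472 (90.3%), than genes with a sequence of their own, 112 of 140 (80.0%). The X chromosome carries 276 of the genes, 250 of them with a summit (90.6%), and chromosome IV was lowest with 55 of 71 (77.5%).

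Isotypes differed little beside the spread of peaks within each of them. Among the 18 isotypes with at least 10 peaks, the median signal ran from 33.1 for asparagine (20 peaks, quartiles 21.2 and 46.8) to 54.4 for aspartate (26 peaks, quartiles 36.3 and 62.8), a log2 difference of 0.72. Histidine (54.2, 11 peaks), alanine (51.3, 32 peaks) and lysine (50.1, 38 peaks) came next below aspartate, and glutamate (39.0, 39 peaks) and methionine (39.9, 18 peaks) next above asparagine. Neighbours in this order had medians far closer than their quartiles. Cysteine, with only 9 peaks, had the highest median of all isotypes, 66.6. The medians leave out genes without a ranked summit within 250 bp. Such a summit was present for 11 of 20 histidine genes, 26 of 27 aspartate genes and all 20 asparagine genes. The order of the 18 medians was partly shared by the replicates, with a Spearman correlation of 0.680 over the isotypes, whose peaks share libraries and gene copies.

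Among isotypes lysine had the most thresholded peaks by number, 11 of 38 (28.9%, 17.0 to 44.8%). Glycine followed with 10 of 44 (22.7%, 12.8 to 37.0%) and proline with 8 of 33 (24.2%, 12.8 to 41.0%). All of these intervals include the 18.4% of all tRNA peaks. By share, isoleucine, glutamine and phenylalanine, at 25% each, stood above glycine and proline. For isoleucine this depended on counting by overlap. Counting only peaks with an IDR of at most 0.01, isoleucine had 21.4%, proline 21.2% and glycine 22.7%. Cysteine had 4 of 9, asparagine 1 of 20 and methionine 0 of 18 (0%, 95% Wilson interval up to 17.6%). The single asparagine peak in the list was that of F41D9.t3, the fifth strongest of all tRNA peaks.

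The strongest peak of each isotype was thresholded except for valine, histidine, methionine and selenocysteine. Y73B6BL.t1, a valine gene, had 81.5 jointly and 48.9 in replicate 2, with no overlapping peak in replicate 1. The histidine gene Y57G11C.t1 had 74.3 jointly, 33.3 in replicate 1 and 31.3 in replicate 2, with its summit 157 bp before the gene. The methionine gene T15B12.t1 had 73.5 jointly, 32.8 in replicate 1 and 51.3 in replicate 2 and was in the conservative list only. The selenocysteine gene K11H12.t1, the only one of its kind, had 40.3 jointly, 28.2 in replicate 1 and 20.9 in replicate 2.

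For the remaining isotypes the strongest peaks were as follows. The isoleucine gene F57F5.t1, which has an intron, had 85.0 jointly, 44.5 in replicate 1 and 45.1 in replicate 2. The tryptophan gene sup-7, known for mutations that suppress amber stop codons, had 84.3 jointly, 38.0 in replicate 1 and 52.0 in replicate 2. The glutamate gene K02B12.t1 had 83.2 jointly, 45.3 in replicate 1 and 37.5 in replicate 2. All 3 were in the thresholded and the conservative list. The phenylalanine gene F22B7.t3, also in both lists, had 79.1 jointly, 40.7 in replicate 1 and 40.5 in replicate 2. Of 5 genes with no annotated isotype, 3 had a peak, with a median of 22.03 and none thresholded, the strongest being DY3.t2 with 27.8.

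**Figure D3:**
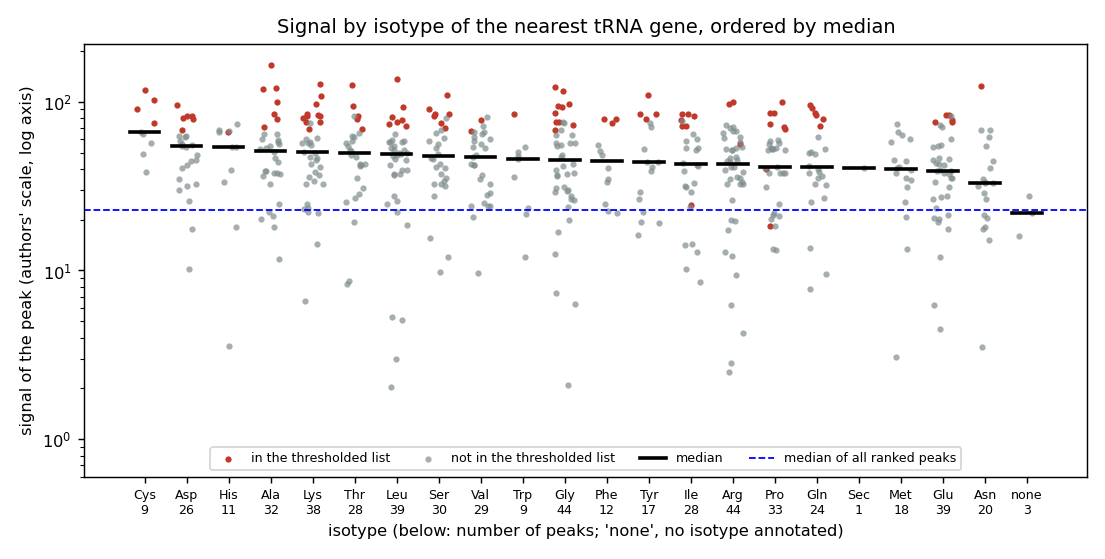
Signal of each tRNA peak on a log axis by isotype of the nearest gene, ordered by median, with the number of peaks under each name, red points in the thresholded list and a dashed line for the median of all ranked peaks. The points of every large isotype spread over most of the range, and the medians of the 18 isotypes with at least 10 peaks run from 33.1 to 54.4.

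Peaks at genes with an intron had about the same joint signal as those at genes without one. An intron is annotated in 29 tRNA genes, 19 for tyrosine, 7 for leucine and 3 for isoleucine, with lengths of 35 to 38 bases for leucine and 10 or 11 for the other isotypes. The 26 peaks at such genes had a median of 46.4 (quartiles 31.7 and 73.9), against 44.9 (quartiles 31.1 and 63.8) for the 508 peaks at genes without an intron. In replicate 1 the medians were 33.1 with and 26.0 without an intron, and in replicate 2 they were 28.3 with and 26.8 without. There were 6 of 26 thresholded with an intron (23.1%, 95% Wilson interval 11.0 to 42.1%) and 92 of 508 without (18.1%, 15 to 21.7%). The intron peaks ran from 137 at C04A11.t1 to 16.2 at the tyrosine gene R148.t1.

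A host gene made little difference as a whole. A host is a protein-coding gene that spans the tRNA gene, and 256 of the 265 peaks at hosted tRNA genes were in its introns. The median was 45.6 for the 265 peaks inside a host and 44.3 for the 269 outside one, and 17.4% of the inside peaks were thresholded, against 19.3% of the outside peaks. Strand divided the hosted genes. With the host on the opposite strand only, 110 peaks had a median of 55.0 and 22.7% thresholded (15.9 to 31.4%), while with a host on the same strand 155 peaks had a median of 42.7 and 13.5% thresholded (9.04 to 19.8%). In the replicates the medians were 30.4 on the opposite and 25.7 on the same strand in replicate 1, and 27.7 on the opposite and 26.4 on the same strand in replicate 2, so the gap was much smaller in replicate 2.

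Peaks of same-strand clusters had a slightly lower median, which depended on how a cluster was defined. A clustered tRNA gene has the start of another on its own strand within 1 kb. A single one has none on its own strand but can have one close by on the other, as T10B10.t2 does. The 94 clustered peaks had a median of 40.8 (quartiles 26.4 and 57.8), against 46.4 (quartiles 32.1 and 64.6) for the 440 single ones, and the thresholded shares were 18.1% and 18.4%. With clusters taken within 500 bp the log2 difference of clustered over single turned to 0.065, against -0.18 within 1 kb. It was -0.46 on the X chromosome and 0.084 on the autosomes, a split chosen after the values were seen. The strongest tRNA peak of all, at F15G9.t1, is a clustered one.

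Peaks with the starts of 2 tRNA genes within 250 bp of the summit had higher signal than those with 1. The 53 peaks with 2 starts had a median of 58.4 and 35.8% thresholded (24.3 to 49.3%), against 43.7 and 16.4% (13.4 to 20%) for the 481 with 1 start. The replicates gave the same order, 30.8 against 25.6 in replicate 1 and 33.0 against 26.6 in replicate 2. Sorted by arrangement, a grouping chosen after the values were seen, 37 peaks lay at head to head pairs with a median of 57.0, 8 at tail to tail pairs with 60.8 and 8 at pairs on the same strand with 74.4.

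**Figure D4:**
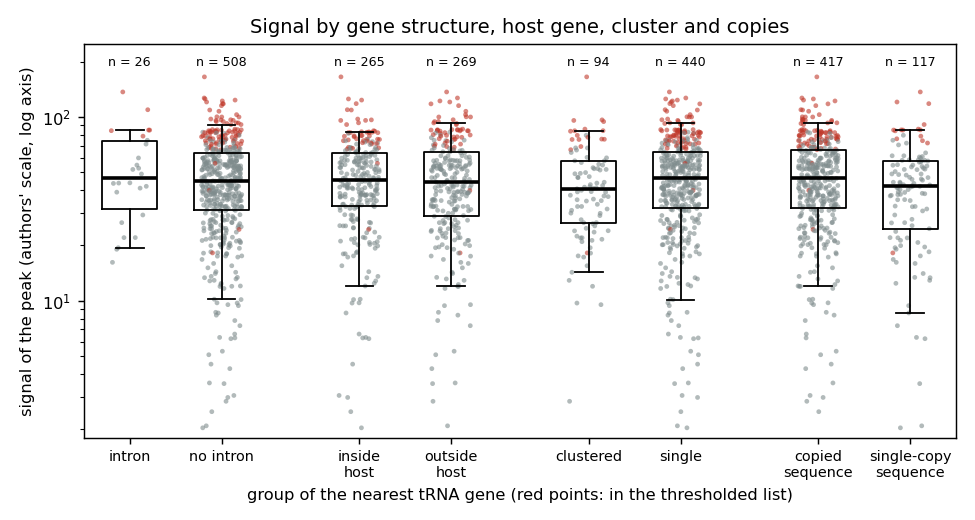
Signal of the tRNA peaks on a log axis by intron, host gene, same-strand cluster and sequence copies of the nearest gene, with boxes for the quartiles, a bar for the median, whiskers at the 5th and 95th percentiles and red points in the thresholded list. The boxes of each pair overlap over most of their height, with medians of 46.4 and 44.9 for intron and no intron.

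Genes whose exact sequence occurs more than once had slightly stronger peaks. The 417 peaks at copied genes had a median of 46.4 and 19.9% thresholded (16.4 to 24.0%), against 42.3 and 12.8% (7.93 to 20.1%) for the 117 at single-copy genes. Both replicates had the same order, 26.5 copied and 23.8 single-copy in replicate 1, and 27.0 copied and 25.6 single-copy in replicate 2. The order held on the X chromosome, with a log2 difference of 0.38, but not on the autosomes, with -0.0045. Reads from identical genes can be told apart only by the bases around them, and the sources used here do not say how such reads were placed.

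Peaks named for identical genes had very different signal. The 612 genes have 200 distinct sequences, 140 of them single, and 32 sequences are shared by at least 5 genes, 402 genes in all. Within these 32 families the strongest peak was 4.67 times the weakest in the median family, with a range of 1.92 to 14.1. The distance of the summit from the gene start was not held equal in these comparisons. A thresholded peak was present in 27 of the 32 families, and no family had a thresholded peak named for each of its genes. Each peak counted here for its nearest gene only. A gene within 250 bp of a peak named for its neighbour could thus count as without one.

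The family of F15G9.t1 has 8 genes, 7 with a peak. Their signals were 166 at F15G9.t1, 100 at T07H6.t2, 64.7 at Y37A1B.t1, 59.7 at T07H6.t1, 53.2 at Y38E10A.t1, 50.1 at B0491.t2 and 20.2 at B0491.t1, with none at Y105C5A.t2. The first 2 were thresholded, and the weak peak at B0491.t1 had its summit at -184 bp from the gene start. In the replicates T07H6.t2 had 57.1 in replicate 1 and 43.0 in replicate 2, against 35.8 in replicate 1 and 27.1 in replicate 2 at T07H6.t1.

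A larger family, 24 proline genes with the sequence shown for F02H6.t1, had 22 genes that were the nearest start of a peak. The remaining genes, T23F1.t2 and F46G11.t1, lay within 250 bp of thresholded peaks named for a neighbour. Those peaks were T23F1.t1 with 108 and F46G11.t2 with 71.2. The signals of the 22 ran from 13.2 at C48C5.t1 to 100 at F02H6.t1, with a median of 40.3, and 5 were thresholded. Of the 5, F23D12.t1 with 39.9 did not pass the IDR limit itself. It was counted because it overlaps the thresholded peak of its neighbour F23D12.t2. F02H6.t1 had 47.4 in replicate 1 and 53.0 in replicate 2. C16B8.t2, the proline gene without GTTCNANNC, had 86.0 jointly, 54.3 in replicate 1 and 34.3 in replicate 2, above all but 1 of the 22. In all, 17 peaks lay at genes without that word, with a median of 41.3 and 4 thresholded, against 45.3 and 94 of 517 at genes with it.

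The X chromosome held 241 of the 534 tRNA peaks, 45.1%, against 17.6% of all ranked peaks, as it holds 276 of the 612 genes. Its tRNA peaks had a median of 48.6 and 22.4% thresholded (17.6 to 28.1%), against 42.7 and 15.02% (11.4 to 19.6%) for the 293 on autosomes. The own thresholded lists were more lopsided: 15 of the 18 tRNA peaks in that of replicate 1 and 9 of the 12 in that of replicate 2 were on X. The share of all peaks of the thresholded lists that lie on X was not counted. Whether the higher thresholded shares on X are particular to tRNA peaks is thus not shown. In the own values the medians were 27.7 on X and 23.9 on autosomes in replicate 1, and 29.1 on X and 26.3 on autosomes in replicate 2.

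Peaks made mostly of repeated sequence were weak. The 22 tRNA peaks in which over 50% of the 30-base words occur more than once in the genome had a median of 21.5 and none thresholded (up to 14.9%), against 46.2 and 98 thresholded for the other 512. The median tRNA peak had 22.6% repeated words.

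The replicates found the tRNA sites more often than ranked sites in general. Of the 534, 438 (82.0%) overlapped a peak in the ranked list of replicate 1, 439 (82.2%) one in that of replicate 2 and 373 (69.9%) one in both, against 48.8%, 48.2% and 26.0% of all ranked peaks. At the 373 peaks the replicate signals had a Spearman correlation of 0.43, against 0.23 at the 30091 ranked peaks found in both. All points come from the same pair of libraries, and overlapping peaks can share a replicate peak. Within the 97 thresholded peaks found in both, the correlation was -0.027 in a set chosen for high joint values, which narrows the range of both replicates. The median log2 ratio of replicate 2 to replicate 1, which includes any difference in scale between the lists, was 0.13 with an SD of 0.78 over the 373 peaks. Summits moved little, by a median of 17 bp in replicate 1 and 15 bp in replicate 2 from the joint summit.

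**Figure D5:**
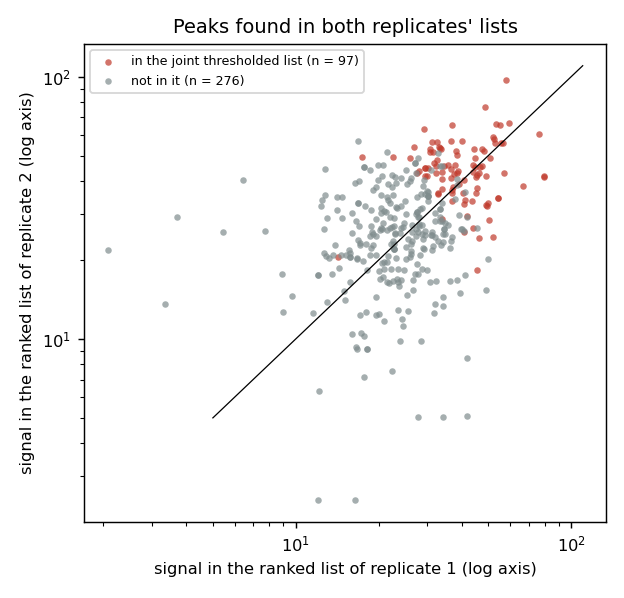
Signal in replicate 2 against signal in replicate 1, both on log axes, at the 373 tRNA peaks found in both ranked lists, with red points in the joint thresholded list and a line of equal values. The 97 thresholded points, chosen for high joint values, sit mostly to the upper right.

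Other short RNA genes, taken by the same rule, gave weaker peaks on the median. The 534 tRNA peaks had a median of 44.9 and 18.4% thresholded, against 35.1 and 9.90% (5.47 to 17.3%) for 101 peaks at snRNA genes, 31.7 and 13.99% (10.5 to 18.4%) for 293 at snoRNA genes and 27.9 and 2.89% (1.24 to 6.59%) for 173 at miRNA genes. The single strongest peak of the 4 kinds was at a snoRNA gene, with 284. Position also differed: the median summit was 30 bp after the start at tRNA genes, 25 bp after it at snRNA genes, 24 bp before it at snoRNA genes and 18 bp before it at miRNA genes.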

How the data were processed

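Peak lists of NHR-120::GFP chromatin immunoprecipitation were analysed, 2 biological replicates in 1 group. The lists are on ce11, per the labels. Aligner, peak caller and how multiply placed reads were handled are not stated in the labels or files. Nor is it stated how the possible control that the labels name was used. The deposited lists hold a signal value per peak, whose scale is not stated, and the deposited ranked lists also hold a score, the −log10 of the global IDR. Tested on the files, all peaks of the thresholded lists have an IDR of at most 0.01, but not all peaks that do are listed: 707 joint ranked peaks pass it and 610 are in the thresholded list. Which lists the IDR compares is not stated. No counts are given, so the depth per sample is unknown. The joint ranked lists hold 4 paired signal columns that carry no sample names and were not used.

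Summits of the joint ranked list were assigned to the nearest tRNA gene start (Ensembl release 115, WBcel235), and introns came from the exons of the same annotation. Isotypes were looked up in RefSeq by WormBase identifier for all 612 genes. Words, copies and repeated 30-base words were counted in the RefSeq genome. Peaks count as shared at an overlap of at least 1 bp. Only medians, quartiles, shares with 95% Wilson intervals, log2 differences of medians and Spearman correlations are given, as descriptions without tests. The intervals cover counting error only and treat peaks as independent, which overlapping peaks and copied genes are not. The peaks named are the 25 with the highest signal, the strongest of each isotype and compared group, and the 3 nearest on either side of the 250 bp limit. Further peaks of 2 gene families and C16B8.t2, C16B8.t3 and R148.t1 were named after their values were seen. The members, groups and words were chosen with earlier results of these data known. Alternatives were other windows, lists, cluster and host definitions, strongest peaks per gene, less repeated peaks and each replicate alone. The assignment was tested on simulated data. Python 3.11.15, numpy 2.4.6, pandas 2.3.3, scipy 1.17.1 and matplotlib 3.10.9 were used.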

Additional observations from a re-analysis of the deposited data

How the results depend on the processing

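Differences are log2 of medians (group named first over the second) unless given as percent. The share of thresholded peaks, 18.4%, was 23.0% within 100 bp, 12.7% within 500 bp, 17.0% in the conservative list and 19.4% with the strongest peak per gene. In the added settings it was 15.02% on autosomes, 22.4% on X and 26.1% for summits inside the gene. Each replicate alone gave 2.67 to 4%, from much shorter thresholded lists of 89 peaks in replicate 1 and 96 in replicate 2. Those shares are therefore not like the joint one. The percentile of the median signal, 92.5, was 95.6 within 100 bp, 82.6 within 500 bp, 94.3 with the strongest per gene, 93.4 without mostly repeated peaks and 86.0 to 86.4 in a replicate alone.

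Intron over no intron, 0.047, turned to -0.029 within 100 bp, -0.031 with the strongest per gene and -0.054 for summits inside the gene (added), was 0.31 on X (added) and spanned 0.094 to 0.36 in the replicates alone. Inside over outside a host, 0.043, turned to -0.038 in the other joint ranked list and -0.017 without mostly repeated peaks. It was -0.13 when only a host on the same strand counted, which moved peaks with an opposite-strand host only to the outside group. The replicates alone gave -0.014 to 0.098, -0.014 being that without replicate 1. Clustered over single, -0.18, turned to 0.065 for clusters within 500 bp and 0.084 on autosomes (added). It was -0.25 within 100 bp, -0.048 within 500 bp, -0.23 with the strongest per gene, -0.16 in the other ranked list and also -0.16 for clusters within 2 kb, -0.46 on X and -0.11 inside the gene (both added), and -0.073 to -0.049 in the replicates alone. Copied over single-copy, 0.14, turned to -0.0045 on autosomes (added) and was 0.21 within 100 bp, 0.19 within 500 bp, 0.38 on X and 0.093 inside the gene (both added), and 0.087 to 0.15 in the replicates alone.

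Summits inside the gene, 48.9%, were 63.2% within 100 bp, 33.1% within 500 bp and 41.6 to 51.4% in the replicates alone. The isotype range, 0.72, was 1.31 within 500 bp, 0.86 with the strongest per gene and 0.45 to 0.63 in the replicates alone. The replicate correlation, 0.43, was -0.027 over thresholded peaks. The cause of these shifts was not tested, beyond the fewer or other peaks that each setting takes. The added settings were chosen after seeing the data. The pairing by unnamed columns of the ranked lists was not run. No paired analysis was possible because there is 1 group. With depth unknown and 2 replicates, a tRNA gene without a ranked peak is not shown to lack NHR-120.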

Other observations

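Several weak tRNA peaks lay beside a strong one, and these were named after their values were seen. The proline genes C16B8.t2 and C16B8.t3 had joint peaks of 86.0 and 18.2, both in the thresholded list, and the replicate peak nearest to both summits was the same one, with 54.3 in replicate 1 and 34.3 in replicate 2. F10C1.t1, a glycine gene, had peaks of 63.9, 99 bp after its start, and 2.09, 104 bp before it, and both overlapped the same replicate peaks of 30.3 and 35.1. The histidine gene C49F5.t1 had 54.2 at 139 bp after its start and 3.57 at 61 bp before it. The value of 18.2 is the lowest of a thresholded tRNA peak and 2.09 is among the lowest of all 534.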
